A study of Homo sapiens with 6 samples.

Results

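The 36 genes described here encode proteins of DNA replication and S phase, the part of the cell cycle in which the genome is copied. They were picked by name for their function, with earlier results of these data known, and were grouped into origin licensing, the replication fork, nucleotide supply, chromatin assembly and regulators. Each of the 36 names was found among the 61228 gene names of the deposited count table, and each was among the 14704 genes that passed the filter on low counts and were tested. RNA was taken from MDA-MB-231 cells, a triple-negative human breast cancer line, grown inside gels of collagen I. In the 3 control libraries the cells had been nucleofected with Cas9 and control guide RNAs. In the 3 knockout (KO) libraries they had received Cas9 with guides for the ETS factor genes ETV1, ETV4 and ETV5, according to the treatment label, whereas the sample titles name ETV4 alone. The KO library names share the tag c39, and the labels do not say whether this is 1 clone, whether replicates are separate cultures, or which collagen concentration each culture had. A difference between the groups and a trait of a single clone cannot be told apart, and each p-value reflects just the scatter among these libraries, which may be technical.

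Replication is prepared in G1, when the origin recognition complex, CDC6 and CDT1 load the ring-shaped MCM2-7 helicase onto DNA. On entry into S phase, CDC45 and the GINS complex join MCM2-7 to form the active helicase, primase and the replicative polymerases copy the strands, and new DNA is wrapped into nucleosomes by histone chaperones. Most of these genes are transcribed under E2F factors, which are released from RB-family proteins late in G1, and their mRNA levels are therefore widely used as a readout of proliferation. In a bulk library, more cells in S phase and more RNA per cell cannot be told apart.

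Library totals ran from 18042601 to 23232770 counts, and levels are given as CPM, counts scaled to one common library total after correction for composition (TMM). The check of the targeted genes gave log2 fold changes of -0.65 for ETV1 and -0.56 for ETV4, both past the test, and 0.01 for ETV5. Of 7 markers of this line (among them VIM and CD44) all were tested, with summed levels of 9760 to 12000 CPM in control and 8650 to 10300 CPM in KO. Of 7 luminal markers 4 were tested, with summed levels of 37.1 to 41.0 and 37.4 to 43.9 CPM, and ESR1 had at most 1 count in a library. These sums hide opposite directions. ERBB3 fell past the test (log2 fold change -0.57), while EPCAM (0.10), GATA3 (0.36) and FOXA1 (0.61) were above 0 and did not pass. Leukocyte markers (2 of 5 tested, CD3E at 0) summed to 6.81 to 8.08 CPM in control and 2.86 to 3.30 CPM in KO, endothelial markers (2 of 4 tested, CDH5 at 0) to 9.73 to 11 and 5.78 to 8.46 CPM, and fibroblast markers (1 of 5 tested) to 9.59 to 9.97 and 9.24 to 11.5 CPM. Of the leukocyte and endothelial markers, LYZ (log2 fold change -1.96) and PECAM1 (-0.85) fell past the test, while CD14 (0.15) and KDR (-0.17) did not pass. The part of these low marker levels in the results was not tested.

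The replication genes were slightly higher in the KO cells as a group. Summed over the 36 genes, their level was 4040 to 4360 CPM in the control libraries and 4860 to 5070 CPM in the KO libraries, and they took 0.409% to 0.431% of all control counts and 0.490% to 0.507% of all KO counts. The median log2 fold change was 0.22, against 0.00 over all tested genes, and 35 of 36 values were above 0. In edgeR's quasi-likelihood test, adjusted over all genes, 9 members rose, 0 fell and 27 did not pass at 0.05. Across all genes, 3.28% were called higher and 6.42% lower, while 25.0% of the members were called higher. At an unadjusted p under 0.05, 24 members were higher and 0 lower, where 11.2% of all genes were higher and 14.2% lower. DESeq2 called 11 members higher and 0 lower, and 3.75% of all genes with an adjusted p higher and 6.11% lower. The values of the groups did not overlap for 22 members, each higher in KO, where 14.9% of all genes lay wholly higher and 16.8% wholly lower.

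The libraries also carry replicate numbers, and same-numbered libraries of the 2 groups deviated together, most closely for replicate 3 (correlation 0.83 over 10032 genes). Replicates 1 and 2 correlated at least as closely across numbers (0.59 and 0.58) as within them (0.55 and 0.45). How these 2 replicates pair is therefore not settled, and the block and pair results rest on the numbers as given. With the replicate number as a block in the fit, 33 members rose and 0 fell, where 17.2% of all genes were called higher and 16.7% lower. These 33 included all 9 of the group comparison, and the 3 that did not pass were GINS1, TK1 and CHAF1B. Within pairs, KO was above control in all 3 pairs for 34 of the 36 members, against 29.4% of all genes. The median difference over the members was 0.17, 0.21 and 0.25 log2 units in pairs 1, 2 and 3.

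**Figure D1:**
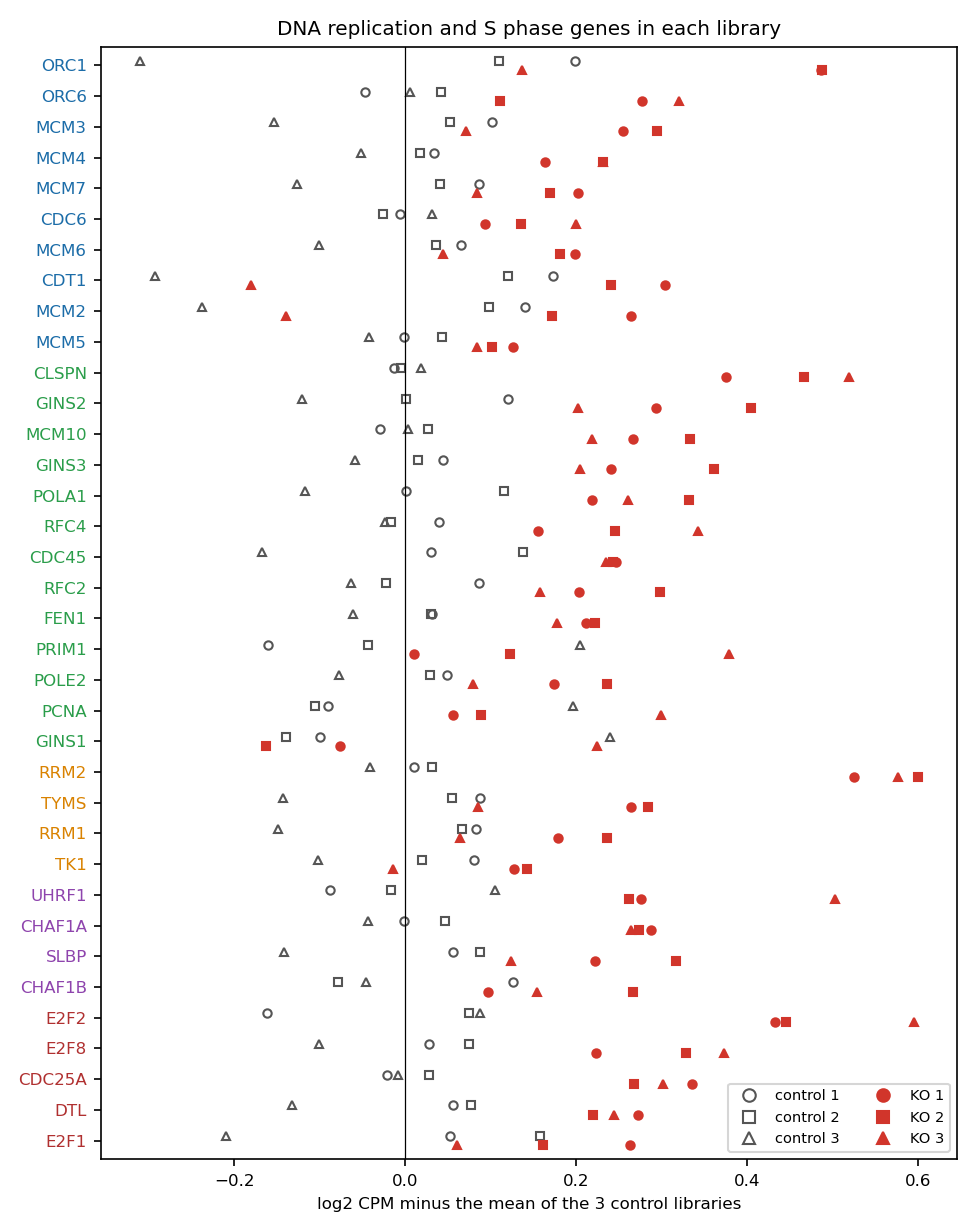
Level of each of the 36 genes in each library as log2 CPM minus the mean of the 3 control libraries (horizontal axis), with control libraries as open grey symbols and KO libraries as filled red symbols; circles, squares and triangles are replicates 1, 2 and 3, and gene names are coloured by functional class. The KO symbols lie to the right of all control symbols for 22 genes, with the widest gap at RRM2 (log2 fold change 0.57), and the triangles stand apart from the circles and squares in both groups for CDT1, MCM2 and GINS1.

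The regulators held the highest share of members past the test, 3 of 5, and their median log2 fold change was 0.30. Of all genes, 3.28% were called higher. E2F2, an activator of the E2F family (ENSG00000007968, GRCh38 chromosome 1, 23506430 to 23531220, minus strand), was at 15.2, 17.9 and 18.1 CPM in control replicates 1 to 3 and at 23.0, 23.2 and 25.7 CPM in KO. The groups did not overlap, and E2F2 rose 1.4-fold (log2 fold change 0.49, SE 0.10, adjusted p = 0.0156 in edgeR). CDC25A, the phosphatase that activates cyclin-dependent kinase at the start of S phase, was at 52.7, 54.6 and 53.2 CPM in control and 67.5, 64.4 and 66.0 CPM in KO. Its controls lay within 2 CPM of each other and all KO libraries lay above them; the log2 fold change was 0.30 (SE 0.06, adjusted p = 0.0137 in edgeR). E2F8, an atypical E2F that represses E2F targets later in S phase, was at 34.7, 35.8 and 31.7 CPM in control and at 39.7, 42.7 and 44.1 CPM in KO, without overlap (log2 fold change 0.31, SE 0.08, adjusted p = 0.0366 in edgeR). E2F1, the best known activator, averaged 79.8 ± 10.2 CPM in control libraries and 88.9 ± 6.27 CPM in KO (SD, n = 3). Its groups overlapped, with control replicate 3 lowest at 68.6 CPM and control replicate 2 at 88.6 CPM, and it did not pass (log2 fold change 0.16, SE 0.10, adjusted p = 0.366 in edgeR; 0.00709 with the block). DTL, the substrate receptor that marks CDT1 for destruction in S phase, had a log2 fold change of 0.24 (SE 0.07, adjusted p = 0.0633 in edgeR; 5.28e-05 with the block). Leaving out control replicate 1 or 2 took E2F2 over the threshold (adjusted p = 0.0668 and 0.0521 in edgeR). CDC25A lost its call without control replicate 1 or 2 or KO replicate 1 (0.0589 to 0.0758), and E2F8 without any library but KO replicate 3 (0.0549 to 0.114). In counts, E2F2 stood at 0.185 to 0.264 of the E2F1 CPM in control and 0.241 to 0.311 in KO, ranges that overlapped and are not adjusted for length.

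E2F-type letters were frequent around the starts of these genes. In RefSeq promoter windows on GRCh38.p14, from 250 bases before to 50 after each start, 33 of the 36 members had an entry. One of 4 spellings of the E2F site (TTTCCCGC, TTTGGCGC, TTTCGCGC or TTTGCCGC, on either strand, where matches on opposite strands can overlap) was in the windows of 19 members, or 57.6%, and lay wholly within the 250 bases before the start in 12 of them. The same letters were in 3.31% of all 35116 windows and in the windows of 6.66% of 10757 tested genes that had an entry. The match did not separate the members by size of change: the median log2 fold change was 0.21 for the 19 with a match and 0.23 for the 14 without, and 4 members of each kind passed the test. A match is a description of the letters and not a bound site. The windows below show the match in capitals with its flanks, read 5′ to 3′ on the strand that carries it. They cover the members past the test that have a match so flanked upstream, and 5 abundant members. They come from chr1:23531258-23531285 for E2F2 (42 bases before the start, minus strand), chr3:48188444-48188471 for CDC25A (minus strand), chr19:4909974-4910001 for UHRF1 (plus strand), chr6:52284899-52284926 for MCM3 (minus strand), chr2:135876578-135876605 for MCM6 (minus strand), chr7:100101567-100101594 for MCM7 (plus strand), chr20:5126664-5126691 for PCNA (plus strand) and chr18:657604-657631 for TYMS (minus strand).
E2F2: cggcacgacgTTTGGCGCtaaaaaaaaa
CDC25A: gtggattccgTTTGGCGCcaactaggaa
UHRF1: ccgagcccgaTTTCGCGCgccctgagtt
MCM3: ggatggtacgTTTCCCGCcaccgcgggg
MCM6: gggctttgcaTTTGGCGCgaaatccctt
MCM7: aggcgccgggTTTCCCGCggtccgagct
PCNA: acgcacgcctTTTCCCGCccctgacgct
TYMS: ccgcgcgcctTTTCCCGCggccgtcccg

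Other short motifs were searched in the same windows on both strands. CCAAT, the box bound by NF-Y and common in cell cycle promoters, was in the windows of 22 of 33 members (66.7%), against 34.6% of all windows and 43.3% of the tested genes. The ETS core CCGGAAGT, of the kind that ETV factors and many other ETS proteins recognise, was in 3 of 33 members (9.09%), namely RFC4, GINS3 and POLA1, against 4.14% of all windows and 9.95% of the tested genes. TTTGAA, the cell cycle homology region typical of mitotic genes, was in 1 member, RRM1 (3.03%), against 15.2% of all windows and 13.7% of the tested genes. The CDC25A promoter is shown from its 250 bases before the start (chr3:48188418-48188667, minus strand, 60.0% G and C) because it carries both kinds of site close together: the E2F letters begin 44 bases and the CCAAT boxes, read here as ATTGG, 58 and 110 bases before the start, all in capitals.
CDC25A: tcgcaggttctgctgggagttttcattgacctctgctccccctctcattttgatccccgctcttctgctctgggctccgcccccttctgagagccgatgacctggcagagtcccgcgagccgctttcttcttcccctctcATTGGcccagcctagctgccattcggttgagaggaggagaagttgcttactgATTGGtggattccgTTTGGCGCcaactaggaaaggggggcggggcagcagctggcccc

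The licensing genes had the lowest median log2 fold change of the 5 classes; differences between classes were not tested. Of 10 members 0 passed the test, with a median log2 fold change of 0.15 and a range of 0.10 to 0.37; 5 were higher at an unadjusted p under 0.05 (11.2% of all genes), and DESeq2 called 1, MCM4. All 10 were above 0, and all 10 rose with the replicate block (edgeR adjusted p from 1.27e-06 to 0.0414). Of all genes, 3.28% were called higher in the group comparison and 17.2% with the block. ORC1, the subunit of the origin recognition complex whose level varies over the cycle, had the largest difference of the class, from 37.2, 35.0 and 26.1 CPM in control to 45.5, 45.5 and 35.7 CPM in KO. Replicate 3 was the lowest library of each group, so that KO replicate 3 lay among the controls (log2 fold change 0.37, SE 0.15, adjusted p = 0.157 in edgeR; 3.42e-06 with the block). ORC6, another subunit, did not overlap between groups (log2 fold change 0.24, SE 0.08, adjusted p = 0.0875 in edgeR; 0.00223 with the block). The loader CDC6 was at 0.14 on that scale (SE 0.06, 0.00243 with the block), also without overlap. CDT1, the loader that is destroyed in S phase, ran from 109, 105 and 79.1 CPM in control to 120, 115 and 85.6 CPM in KO, a spread within each group larger than the difference between them (log2 fold change 0.12, SE 0.16, adjusted p = 0.687 in edgeR; 0.0196 with the block).

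The 6 subunits of the MCM2-7 ring, which are needed in equal numbers, had log2 fold changes between 0.10 and 0.21. MCM2 was at 144, 140 and 111 CPM in control and 157, 147 and 118 CPM in KO. MCM3 was at 347, 336 and 291 CPM in control and 386, 397 and 340 CPM in KO. In both genes the third library was lowest in each group and the groups overlapped. MCM4 was at 238, 236 and 225 CPM in control and 261, 273 and 273 CPM in KO, and MCM5 at 132, 136 and 128 CPM in control and 144, 141 and 139 CPM in KO. These were the 2 subunits whose groups did not overlap, where 14.9% of all genes lay wholly higher in KO. MCM6 was at 121, 119 and 108 CPM in control and 133, 131 and 119 CPM in KO, and MCM7 at 349, 338 and 301 CPM in control and 378, 369 and 348 CPM in KO. For both, KO replicate 3 lay just below control replicate 1. MCM4 came nearest to the threshold (log2 fold change 0.21, SE 0.06, adjusted p = 0.0585 in edgeR), and the other 5 had edgeR adjusted p from 0.184 (MCM3) to 0.684 (MCM2). Each of the 6 was higher in KO in every same-numbered pair, against 29.4% of all genes.

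**Figure D2:**
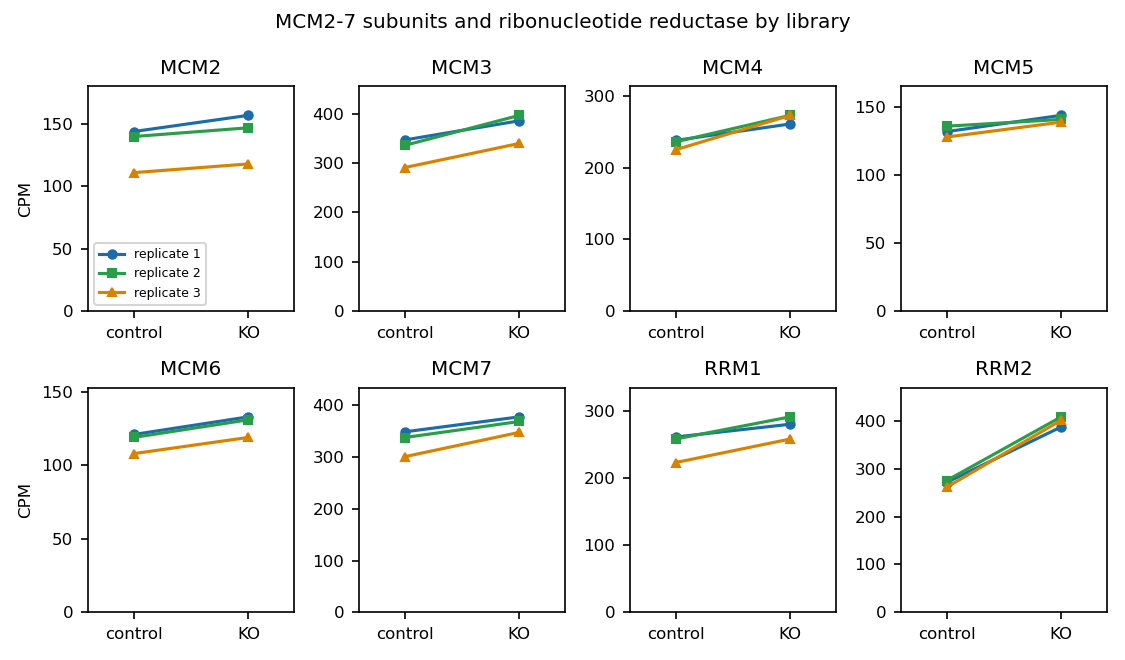
CPM (vertical axis, from 0) of the MCM2-7 subunits and of the ribonucleotide reductase subunits RRM1 and RRM2 in control and KO libraries, with a line joining libraries that share a replicate number. The MCM lines are nearly parallel and shallow, with replicate 3 lowest in control for all 6 subunits, whereas RRM2 rises from 261 to 275 CPM in control to 387 to 408 CPM in KO.

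Of the 13 fork genes, 3 rose and 10 did not pass, with a median log2 fold change of 0.24, where 3.28% of all genes were called higher. With the replicate block 12 rose, where 17.2% of all genes were called higher. CLSPN, which encodes the adaptor claspin that links stalled forks to the checkpoint kinase CHK1 (ENSG00000092853, chromosome 1, 35720218 to 35769967, minus strand), was at 139, 140 and 142 CPM in control and at 182, 194 and 202 CPM in KO. The groups were far apart for their spread, and CLSPN rose 1.37-fold (log2 fold change 0.46, SE 0.06, adjusted p = 0.00223 in edgeR). MCM10, a fork protein that despite its name is not part of the ring, was at 61.5, 63.9 and 62.9 CPM in control and at 75.6, 79.1 and 73.0 CPM in KO (log2 fold change 0.27, SE 0.06, adjusted p = 0.0226 in edgeR). RFC4, a subunit of the clamp loader that places PCNA on DNA, was at 73.8, 70.9 and 70.6 CPM in control and at 80.0, 85.1 and 91.1 CPM in KO (log2 fold change 0.25, SE 0.07, adjusted p = 0.0459 in edgeR). None of the 3 overlapped between groups. Leaving out any 1 of the 6 libraries took RFC4 over the threshold (edgeR adjusted p of 0.0513 to 0.166), and leaving out control or KO replicate 1 or 2 did so for MCM10 (0.0817 to 0.109), while CLSPN passed in all 6 such fits. The 250 bases before the CLSPN start (chr1:35769979-35770228, minus strand, 66.0% G and C) are shown since CLSPN had the smallest adjusted p of the class. They hold 3 CCAAT boxes, read as ATTGG in capitals, 119, 94 and 46 bases before the start, and no whole E2F spelling; the E2F match of this gene lies nearer to or past the start.
CLSPN: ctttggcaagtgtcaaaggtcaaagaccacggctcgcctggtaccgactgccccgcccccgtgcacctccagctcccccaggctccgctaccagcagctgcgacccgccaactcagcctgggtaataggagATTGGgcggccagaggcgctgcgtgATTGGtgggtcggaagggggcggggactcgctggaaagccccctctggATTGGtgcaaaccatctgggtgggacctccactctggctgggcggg

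The GINS subunits, which bind MCM2-7 as a complex of 4 different proteins, did not share a value. GINS1 was at 45.7, 44.4 and 57.8 CPM in control and 46.4, 43.7 and 57.2 CPM in KO. It had the lowest fold change of the 36 genes (log2 fold change -0.01, SE 0.13, adjusted p = 0.981 in edgeR; 0.958 with the block), and its same-numbered libraries were almost equal. GINS2 had a log2 fold change of 0.30 (SE 0.09, adjusted p = 0.0618 in edgeR; 7.78e-05 with the block) and GINS3 of 0.27 (SE 0.08, adjusted p = 0.0754 in edgeR; 0.00595 with the block), both without overlap. GINS4, the remaining subunit and not one of the 36, rose from 79.5 to 96.9 CPM (0.28 as log2 fold change, SE 0.06, adjusted p = 0.0157 in edgeR). The ratio of GINS2 to GINS1 CPM in a library ran from 0.580 to 0.867 in control and from 0.733 to 1.11 in KO, lowest in replicate 3 of each group; the difference between subunits was not tested. CDC45, the other partner of the active helicase, was at 38.6 to 47.7 CPM in control and 51.1 to 51.5 CPM in KO (log2 fold change 0.24, SE 0.08, adjusted p = 0.115 in edgeR; 8.31e-04 with the block).

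The remaining fork genes had small positive values that did not pass in the group comparison. POLA1, the catalytic subunit of polymerase alpha, had a log2 fold change of 0.27 (SE 0.08), POLE2, a polymerase epsilon subunit, 0.16 (SE 0.07), and PRIM1, the primase that makes RNA primers, 0.17 (SE 0.12). FEN1, the nuclease that trims Okazaki fragments, had 0.20 (SE 0.06, adjusted p = 0.0618 in edgeR) and RFC2, a second clamp loader subunit, 0.22 (SE 0.07). PCNA, the sliding clamp itself, was at 193, 191 and 236 CPM in control and 214, 219 and 253 CPM in KO. Control replicate 3 lay above KO replicates 1 and 2, and PCNA did not pass (log2 fold change 0.14, SE 0.10, adjusted p = 0.418 in edgeR; 7.43e-04 with the block). With the block all 6 rose, with PRIM1 nearest to the threshold (adjusted p = 0.0415 in edgeR), where 17.2% of all genes were called higher.

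Nucleotide supply held the largest single change among the 36 genes. RRM2, the small subunit of ribonucleotide reductase whose level limits the making of deoxynucleotides (ENSG00000171848, chromosome 2, 10120698 to 10131419, plus strand), was at 271, 275 and 261 CPM in control and at 387, 408 and 401 CPM in KO. The gap between the groups was several times the spread within them, and RRM2 rose 1.48-fold (log2 fold change 0.57, SE 0.06, adjusted p = 0.000612 in edgeR). It passed without any 1 of the 6 libraries (edgeR adjusted p up to 0.00689). RRM1, the large subunit, was at 261, 258 and 223 CPM in control and 280, 291 and 258 CPM in KO, with overlap (log2 fold change 0.16, SE 0.08, adjusted p = 0.267 in edgeR; 2.07e-04 with the block). The RRM2 to RRM1 ratio of CPM was 1.04, 1.07 and 1.17 in control replicates 1 to 3 and 1.38, 1.4 and 1.55 in KO, so that every KO library lay above every control library. TYMS, thymidylate synthase, had a log2 fold change of 0.21 (SE 0.08, adjusted p = 0.157 in edgeR; 7.67e-07 with the block). TK1, the salvage kinase for thymidine, measured 156 ± 9.98 and 166 ± 9.76 CPM (SD, n = 3) and did not pass with or without the block (edgeR adjusted p = 0.0709 and 0.513). Some reads of both synthesis genes may be shared: in GENCODE 29, 39.1% of the TYMS exon bases overlap ENOSF1 on the opposite strand, and 20.2% of the RRM2 exon bases overlap AC007240.1, annotated as protein-coding on the same strand. ENOSF1 itself went from 41.2 to 35.8 CPM and did not pass (log2 fold change -0.20).

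RRM2 had no E2F spelling in its window but 3 CCAAT boxes, 123, 93 and 66 bases before the first start listed, each followed by the same run of letters. The repeats are shown with 10 bases on either side (GRCh38.p14, plus strand; chr2:10122606-10122630, chr2:10122636-10122660 and chr2:10122663-10122687, in that order).
RRM2 box 1: caaggcgcagCCAATgggaagggtc
RRM2 box 2: catggcacagCCAATgggaagggcc
RRM2 box 3: ggcaccaaagCCAATgggaagggcc

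Of the 4 chromatin assembly genes, 2 rose, where 3.28% of all genes were called higher. CHAF1A, the large subunit of the CAF-1 chaperone that deposits histones behind the fork, was at 111, 115 and 108 CPM in control and at 136, 135 and 134 CPM in KO, without overlap (log2 fold change 0.27, SE 0.05, adjusted p = 0.0156 in edgeR). UHRF1, which brings the methyltransferase DNMT1 to newly copied DNA, was at 153, 160 and 174 CPM in control and at 196, 195 and 230 CPM in KO, also without overlap (log2 fold change 0.35, SE 0.08, adjusted p = 0.0337 in edgeR). CHAF1B, the partner of CHAF1A in the same complex, was at 31.2, 27.0 and 27.7 CPM in control and 30.6, 34.4 and 31.8 CPM in KO. It was the one member besides GINS1 with a KO library below its same-numbered control, in pair 1, and did not pass (log2 fold change 0.17, SE 0.08, adjusted p = 0.242 in edgeR; 0.0505 with the block). SLBP, which binds the stem-loop of histone mRNAs in place of a poly(A) tail, had a log2 fold change of 0.22 (SE 0.08, adjusted p = 0.123 in edgeR; 1.88e-05 with the block) and did not overlap. Without control or KO replicate 1 or 2, neither CHAF1A (edgeR adjusted p of 0.0533 to 0.0823) nor UHRF1 (0.0642 to 0.138) passed. The CHAF1A upstream bases (chr19:4402390-4402639, plus strand, 68.0% G and C) are shown as those of the class's smallest adjusted p. They hold CCAAT boxes 213 and 188 bases before the start and, near 40 bases before it, a pair on opposite strands that overlap in CCAATTGG, and no E2F spelling.
CHAF1A: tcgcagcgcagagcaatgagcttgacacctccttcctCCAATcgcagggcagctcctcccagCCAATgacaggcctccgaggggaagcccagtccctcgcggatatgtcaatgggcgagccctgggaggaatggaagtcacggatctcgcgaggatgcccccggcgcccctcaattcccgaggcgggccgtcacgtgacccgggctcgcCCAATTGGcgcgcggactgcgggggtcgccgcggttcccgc

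**Figure D3:**
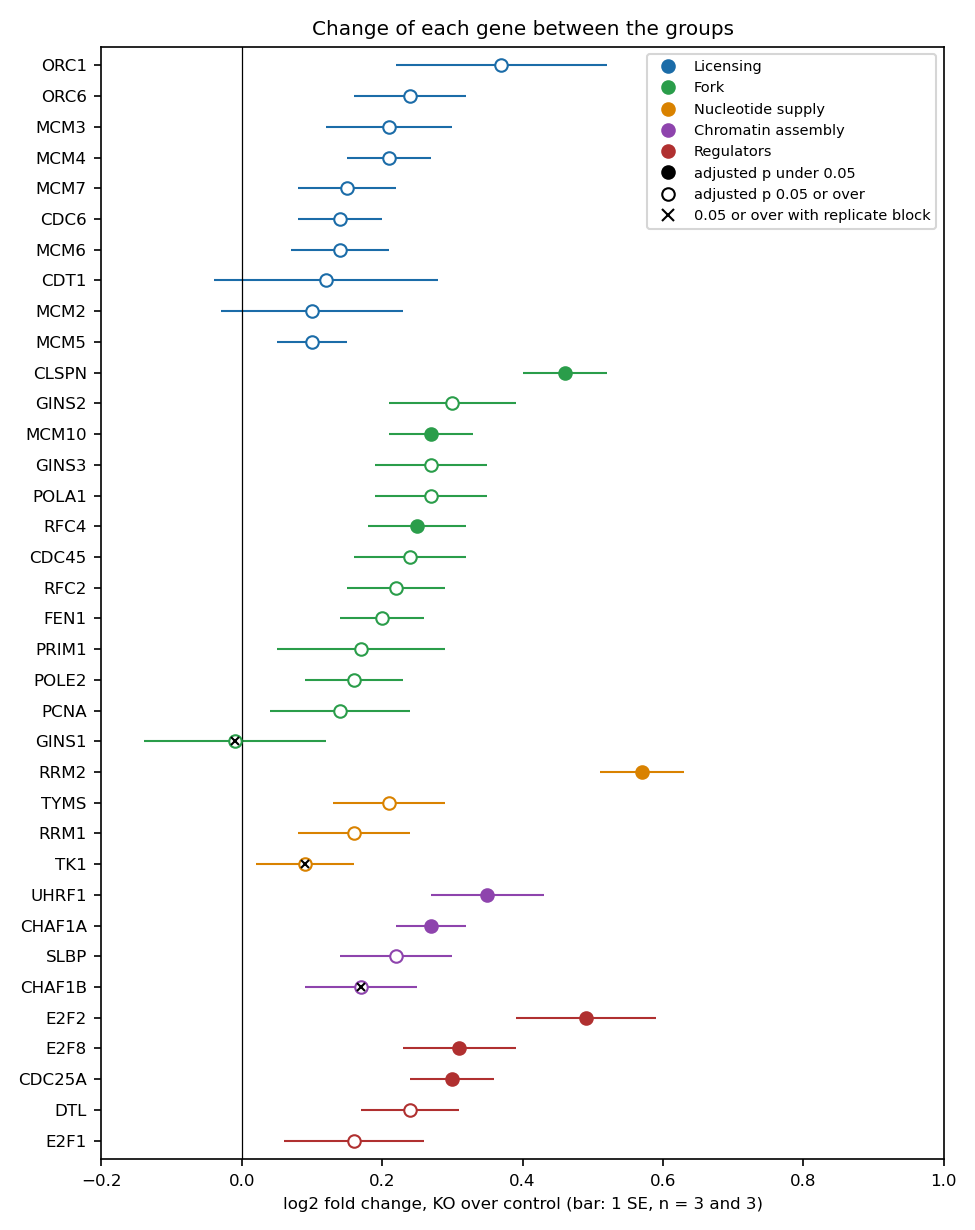
Log2 fold change of KO over control for the 36 genes (horizontal axis; bars are 1 SE from edgeR, 3 libraries a group), coloured by class, with filled symbols for an adjusted p under 0.05 and a cross for an adjusted p of 0.05 or over when the replicate number is a block. Values run from -0.01 (GINS1) to 0.57 (RRM2), 9 symbols are filled, and crosses mark GINS1, TK1 and CHAF1B.

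Levels differed far more between these genes than between the groups. Per kilobase of the principal GENCODE 29 transcript, control levels ran from 188 ± 15.6 CPM per kb for TYMS and 152 ± 18.7 for PCNA to 6.39 ± 0.502 for CHAF1B and 3.29 ± 0.312 for E2F2 (SD, n = 3). Within the MCM ring, MCM7 (111 ± 8.50) and MCM3 (101 ± 9.25) were close to each other, MCM4 followed at 55.7 ± 1.67, and MCM5 (37.4 ± 1.13), MCM2 (36.4 ± 4.97) and MCM6 (31.0 ± 1.87 CPM per kb) lay lower, MCM5 and MCM2 within their spread. RRM1 (80.4 ± 6.87) and RRM2 (78.4 ± 2.10 CPM per kb) were level in control. In KO, RRM2 stood at 116 ± 3.12 and RRM1 at 89.8 ± 5.46 CPM per kb. The lengths come from an annotation that may differ from the one used for counting, which shifts a gene's level in all libraries alike.

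Replicate 3 stood apart in both groups. For 30 of the 36 genes, replicate 3 lay on the same side of the mean of replicates 1 and 2 in both groups, lower for 22 and higher for 8. The median size of that shift was 0.13 log2 units, against 0.05 (control) and 0.06 (KO) between replicates 1 and 2 and a median KO change of 0.22. In 11 genes the shift was larger than the KO change. CDT1 was lower in replicate 3 by -0.44 in control and -0.46 in KO on the log2 scale, ORC1 by -0.47 and -0.35, and MCM2 by -0.36 in both. GINS1 was higher by 0.36 and 0.35, PRIM1 by 0.31 in both and PCNA by 0.30 and 0.22. Over the 36 genes the shifts in the 2 groups had a Pearson r of 0.9, a description across genes that share these libraries. The labels give no date or batch for replicate 3, and what sets it apart was not tested. The medians of the members in replicate 3 still differed by group, at -0.06 log2 units from the control mean in control replicate 3 and 0.20 in KO replicate 3.

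**Figure D4:**
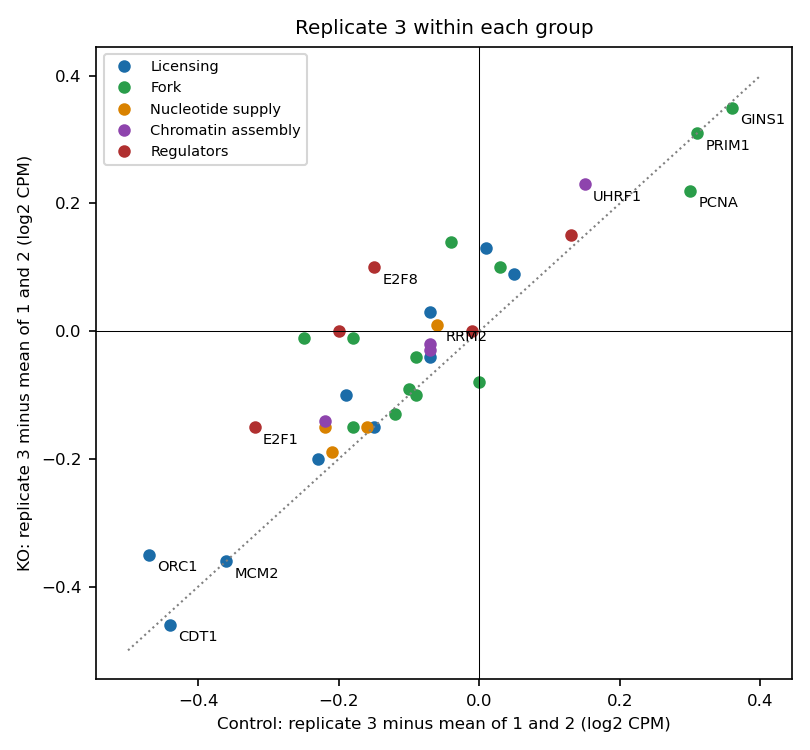
Difference of replicate 3 from the mean of replicates 1 and 2 in log2 CPM, in the control libraries (horizontal axis) and the KO libraries (vertical axis), 1 point a gene, coloured by class; the dotted line marks equal shifts. Points lie near the line from CDT1 (-0.44 and -0.46) to GINS1 (0.36 and 0.35), and 30 of 36 have the same sign in both groups.

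How many members passed depended on these libraries. Without both libraries numbered 3, 25 members rose, where 11.7% of all genes were called higher. Without KO replicate 3 alone 18 rose (5.17% of all genes), and without control replicate 3, 7 rose (2.32%). Without control replicate 1 or control replicate 2, 2 members rose (0.923% and 0.903% of all genes), without KO replicate 1, 3 rose (1.21%) and without KO replicate 2, 4 rose (1.16%). RRM2 and CLSPN were the 2 members that passed in each of the 6 fits.

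Further genes of the same pathway were tested alongside the 36. Of 79 further replication genes tested, 13 rose, 2 fell and 64 did not pass, where 3.28% of all genes were called higher and 6.42% lower, and the median log2 fold change was 0.16. With the block 50 rose and 4 fell, where 17.2% of all genes were higher and 16.7% lower. By role, 0 of 10 further licensing genes passed (2 at an unadjusted p under 0.05, each higher, 7 with the block, and 0 with DESeq2), with MCM8, a helicase related to MCM2-7, at a log2 fold change of 0.37 (SE 0.13, adjusted p = 0.116 in edgeR) and ORC3 at 0.17 (SE 0.07, adjusted p = 0.171 in edgeR). Of 30 further fork genes 6 rose, and with the block 20 rose and 1 fell. Among the 6 were GINS4, the clamp loader factor DSCC1 (log2 fold change 0.32, SE 0.07) and the nuclease DNA2 (0.34, SE 0.07). Of 8 further nucleotide genes, SAMHD1, which breaks down deoxynucleotides, rose from 70.5 to 92.5 CPM (0.39 as log2 fold change, SE 0.05, adjusted p = 0.0031 in edgeR), and TK2, the mitochondrial thymidine kinase, fell from 51.7 to 41.1 CPM (-0.33 as log2 fold change, SE 0.06, adjusted p = 0.0141 in edgeR). Of 12 further chromatin genes, HAT1, which acetylates new histones (0.31, SE 0.06), and DNMT1, the maintenance methyltransferase (0.28, SE 0.07), rose and 10 did not pass; with the block 8 rose.

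Among 19 further regulators 4 rose and 1 fell, where 3.28% of all genes were called higher and 6.42% lower. With the block 10 rose and 2 fell, where 17.2% of all genes were higher and 16.7% lower. CCNE2, cyclin E2, was at 30.8, 33.1 and 33.7 CPM in control and 45.8, 47.7 and 47.7 CPM in KO (log2 fold change 0.53, SE 0.07, adjusted p = 0.00175 in edgeR), without overlap. FBXO5, an inhibitor of the anaphase-promoting complex (0.31, SE 0.06), and E2F3, the third activator E2F (0.27, SE 0.06), also rose. RBL2, the RB-family protein p130 that represses E2F targets in resting cells, fell from 39.6 to 31.2 CPM (-0.34 as log2 fold change, SE 0.08, adjusted p = 0.0239 in edgeR), while RB1 (0.07, SE 0.06) and the atypical repressor E2F7 (-0.02, SE 0.05) did not pass.

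Lists of neighbouring processes are read against the shares of all genes, 3.28% called higher and 6.42% lower in the group comparison. With the block, 17.2% of all genes were called higher and 16.7% lower. The share higher was 3.75% in DESeq2, 5.17% without KO replicate 3 and 11.7% without both libraries numbered 3. Leaving out any other single library gave 0.903% to 2.32%. Of 14 checkpoint and repair genes 1 rose, EXO1 (log2 fold change 0.31, SE 0.07, adjusted p = 0.0260 in edgeR); BRCA1 had 0.25 (SE 0.07, adjusted p = 0.0632 in edgeR), and the list median was 0.20. With the block 9 of the 14 rose, without KO replicate 3 alone 5, and without both libraries numbered 3 also 9; without any 1 of the other libraries 0 rose. Of 21 mitotic genes 1 rose, the kinase gene PLK1 (0.25, SE 0.06, adjusted p = 0.0371 in edgeR), with CDC20, the activator of the anaphase-promoting complex, at 0.27 (SE 0.07, adjusted p = 0.0588 in edgeR); the median was 0.19. Of these 21, 18 rose with the block, 4 in DESeq2, 8 without KO replicate 3, 17 without both libraries numbered 3 and 0 without any 1 of the other libraries. Of 10 genes of cell cycle exit 1 rose and 1 fell, with a median of -0.06, and with the block 3 rose and 3 fell. CDKN1A, the kinase inhibitor p21, rose from 61.4 to 76.8 CPM (0.33 as log2 fold change, SE 0.07, adjusted p = 0.0279 in edgeR), and CCNG2, an atypical cyclin of resting cells, fell from 43.0 to 34.0 CPM (-0.34 as log2 fold change, SE 0.07, adjusted p = 0.0175 in edgeR). Fits without 1 library were also read for the genes named as risen or fallen in the further replication lists and the neighbouring lists. Of these genes, CCNE2 and SAMHD1 passed without any 1 of the 6 libraries (adjusted p up to 0.0145 and 0.0247 in edgeR). Each of the others in these lists lost its call in 3 to 5 of the 6 fits, with adjusted p of at most 0.134 (DNMT1) there.

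**Figure D5:**
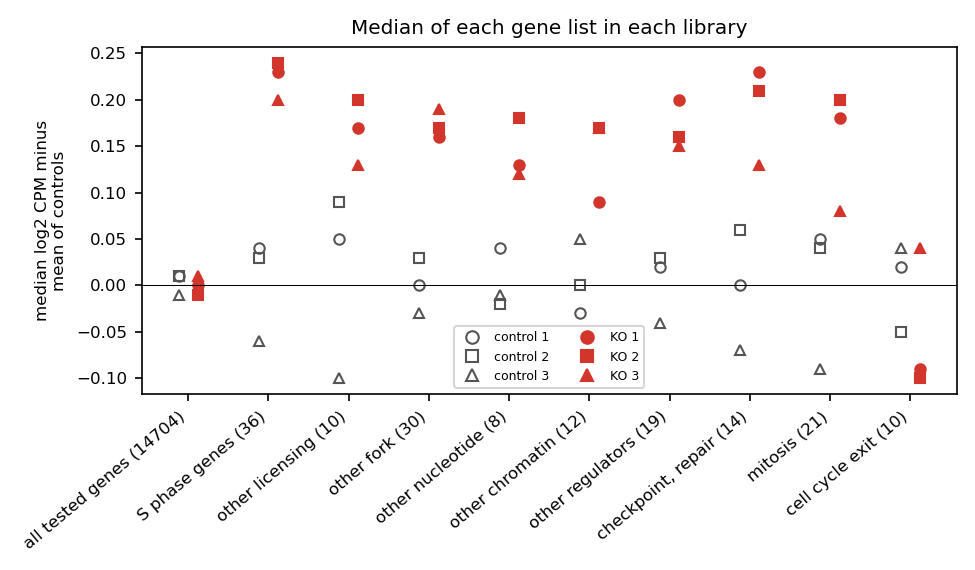
Median over each gene list (number of genes in brackets) of log2 CPM minus the mean of the 3 control libraries, in each library; open grey symbols are control, filled red symbols KO, and circles, squares and triangles are replicates 1, 2 and 3. For the 36 replication genes (labelled S phase genes) the KO medians are 0.20 to 0.24 and the control medians -0.06 to 0.04, while over all 14704 tested genes they lie between -0.01 and 0.01.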

How the data were processed

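RNA-seq counts were analysed for 3 control and 3 KO libraries. Per the labels' protocols, gels were digested with collagenase, RNA was column-purified and DNase-treated, and stranded poly(A) libraries were made. The authors deposited raw counts per gene; the submitters' processing notes name FastQC 0.11.9, STAR 2.7.9a, featureCounts, R 4.1.1 and hg38. For the annotation, the strand setting and multi-mapping reads, the choice is not given in the sources used here, so reads of overlapping genes or near-identical copies are uncertain. No column of another sample was in the table.

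The members and gene lists were chosen with earlier results of these data known. Groups and replicate numbers came from the sample titles. Genes were kept by filterByExpr (14704 left), scaled by TMM and tested with edgeR's quasi-likelihood test on the deposited counts (R 4.3.3, edgeR 4.0.16), fitting group alone, with Benjamini-Hochberg adjustment over all tested genes and a threshold of 0.05; the SE is the log2 fold change over the root of F. Log2 CPM used a prior count of 2. The procedure was tested on simulated data, with changes larger than those of the members and no shared replicate effect. How well it finds changes of the members' size was not tested. Per-library values are given for members past the test and for MCM2-7; from other lists, the up to 3 genes per direction with the smallest adjusted p, or the top 2 where fewer than 2 passed, are named, and other genes were chosen after their values were seen.

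Between groups, same-numbered libraries had correlations of deviations from the group mean of 0.55, 0.45 and 0.83 over 10032 genes, which are not independent replicates. As each is above 0.1, the numbers were taken to pair the libraries, which comes from the data and not from the labels. Deviations from a mean of 3 libraries sum to 0. With replicate 3 apart in both groups, replicates 1 and 2 therefore tend to correlate above 0 in any pairing. This rule thus could not show how replicates 1 and 2 pair. Both cross pairs of replicates 1 and 2 were above their same-numbered pairs (0.59 for control 1 with KO 2, 0.58 for control 2 with KO 1), so the number ties replicate 3 alone more closely than any other pairing. The fit with the replicate block leaves 2 residual degrees of freedom. Alternatives were this block, DESeq2 1.42.0, RLE factors, library totals, no filter, each library left out, and both libraries numbered 3 left out. No libraries of a group matched within sampling noise (chi-square over its degrees of freedom at least 3.88). A count of 0 allows up to 3 counts, or 0.129 to 0.166 CPM; this covers counting error only. Positions are from GENCODE 29 and RefSeq promoter windows on GRCh38; for RRM2, whose upstream bases overlap annotated exons, short windows are shown.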

Additional observations from a re-analysis of the deposited data

How the results depend on the processing

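For no setting did a member pass as lower in KO, and the median log2 fold change of the 36 genes stayed between 0.18 and 0.26. Counts moved with the settings. With the replicate block, 2522 genes were higher and 2461 lower, 33 members rose (licensing 10, fork 12, nucleotide supply 3, regulators 5), and of the other lists 80 genes rose and 7 fell. Without both libraries numbered 3, 1731 genes were higher and 2023 lower, 25 members rose (licensing 6, fork 9, nucleotide supply 3), and of the other lists 65 rose and 8 fell. With library totals alone 545 of 14704 tested genes were higher and 917 lower, and 14 members rose (licensing 1, fork 6). Without a filter on low counts 719 of 28762 tested genes were higher and 1307 lower, and 13 members rose (licensing 1, fork 5). With DESeq2 547 of 14601 genes were higher and 892 lower, and 11 members rose (licensing 1). With 1 library left out, 136 to 777 genes were higher and 436 to 964 lower; 2 to 18 members rose, and by class 0 to 2 licensing, 1 to 7 fork, 1 to 2 nucleotide supply, 0 to 3 chromatin assembly and 0 to 4 regulator genes; of the other lists 2 to 32 rose and 0 to 4 fell. Over all genes and over the members, the counts called higher were largest in the block fit, which used all 6 libraries. They were smallest in fits with 1 library left out, and the cause was not tested. Signs turned for values near 0. Leaving out 1 library in turn gave -0.01 (control replicate 3) to 0.28 for CDT1, -0.01 (control replicate 3) to 0.23 for MCM2, -0.11 to 0.12 for GINS1 (above 0 also without KO replicate 1, 0.04, or 2, 0.07) and -0.02 (control replicate 2) to 0.04 for ETV5; DESeq2 put GINS1 at 0. RLE factors moved no count by more than 1.5 times.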

Other observations

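The following 3 listed cell cycle genes had almost no reads and were not tested. NUSAP1, a spindle gene of mitosis, had 0 to 2 counts in each library, and BTG2, an antiproliferative gene, had 1 to 4. CDKN2B, which encodes the kinase inhibitor p15, had 0 counts in all 6 libraries, which allows up to 0.129 to 0.166 CPM. How the authors' counting treated reads in overlapping annotation is not given in the sources used here, so these low counts, that of NUSAP1 above all, do not show that a gene was silent.

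MKI67, the usual proliferation marker, was at 450, 477 and 381 CPM in control and 582, 596 and 498 CPM in KO (log2 fold change 0.36, SE 0.10, adjusted p = 0.0598 in edgeR; 2.99e-13 with the replicate block), and TOP2A, a topoisomerase of dividing cells, went from 639 to 735 CPM (0.20 as log2 fold change, SE 0.06, adjusted p = 0.0754 in edgeR; 1.69e-06 with the block).

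CKS1B, a small partner of cyclin-dependent kinases, had a wide spread within each group. It was at 146, 136 and 228 CPM in control and 146, 158 and 239 CPM in KO, with replicate 3 highest in both groups (log2 fold change 0.09, SE 0.27, adjusted p = 0.885 in edgeR).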
